A study of Mus musculus with 9 samples.

Results

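Gene expression in 3T3-L1 adipocytes given phenformin was set against that in adipocytes given linoleic acid (LA). 3T3-L1 is a mouse preadipocyte line that turns into fat-storing cells in culture. The 3 arrays titled phenformin and the 3 titled LA were compared, 6 of the 9 arrays of the series. The other 3 arrays, from cells given conjugated linoleic acid (CLA), served only to share the estimate of the spread. They enter by themselves only among the control measures and near the end. Each array held total RNA of 1 sample, and the labels call the 3 arrays of a group biological replicates. The design names LA, a common dietary fatty acid, as the control, so no untreated cells were used here. The series was made to study AMPK and prostaglandins in fat loss from such cells, and phenformin stands in it as an activator of AMPK. The sources used here do not give the doses, the times or which CLA isomer was used. Nor do they say whether LA was also present in the phenformin cultures. A difference between the groups can therefore come from phenformin or from LA, and these cannot be told apart. Values are log2 expression levels of probe sets, the brightest probe set stands for its gene, and differences are phenformin minus LA on the log2 scale, ± SE, from a limma fit with n = 3 arrays a group. A gene was called at a Benjamini-Hochberg adjusted p under 0.05. "Rose" and "fell" are used of called genes only. The adipocyte label was checked on 8 measured markers of 10 listed. All 8 were above background in both groups, with a log2 summed level of 16.33 to 16.44 in phenformin arrays and 15.69 to 16.51 in LA arrays. RNA was taken from whole cultures, so fewer cells of a type and less RNA per cell cannot be told apart.

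Phenformin is a biguanide, a relative of metformin, that blocks electron flow through complex I of the respiratory chain. The fall in cellular energy activates AMP-activated protein kinase (AMPK), which phosphorylates and restrains acetyl-CoA carboxylase and other enzymes of fat and sterol synthesis. A stalled respiratory chain is also known to start the integrated stress response, in which phosphorylation of the translation initiation factor eIF2 slows protein synthesis while the transcription factor ATF4 is made and switches on genes for amino acid supply.

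The LA arrays stood apart from the phenformin arrays in control measures as well. The 3′ minus 5′ difference of the pyruvate carboxylase control, which grows as labelled RNA gets shorter, was 3.95 ± 0.60 with phenformin and 5.35 ± 0.43 with LA (SD, n = 3 each), and the arrays of the groups did not overlap (3.30 to 4.50 and 4.999 to 5.83). That of actin was 0.56 ± 0.09 with phenformin and 1.28 ± 0.39 with LA. The hybridization controls averaged 10.95 ± 0.50 with phenformin and 9.93 ± 0.21 with LA. The CLA arrays were at 4.02 ± 0.63 for pyruvate carboxylase, 0.53 ± 0.10 for actin and 11.94 ± 0.82 for the hybridization controls. LA thus had the highest 3′ minus 5′ differences and the lowest hybridization controls of the 3 groups. LA replicate 3 had the narrowest range of values: its 99th percentile was 11.62, against 12.40 to 12.45 in phenformin arrays and 12.18 and 12.32 in the other LA arrays. Correlations between arrays over probe sets were 0.986 to 0.996 within the groups and 0.971 to 0.979 between phenformin and LA arrays. What part these measures have in the differences below was not tested beyond the refits with a 3′ minus 5′ covariate, after quantile normalization and without each array, which are named where they end the call of a gene described here. They are also given where they move the number of a list's rises or falls by over 1.5 times, except where that number is 0 or 1.

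Phenformin and LA cultures differed in 7401 of 45037 probe sets, 16.4%, with 5168 higher (11.5%) and 2233 lower (4.96%) in phenformin. Over 18193 genes, 3422 (18.8%) were called: 2493 (13.7%) rose and 929 (5.11%) fell, and the median difference of all genes was 0.01. Each count of list members below is to be read beside this 13.7% and 5.11%. At least a 2-fold difference was reached by 1074 called genes (5.9%), 889 of the genes that rose (4.89% of all) and 185 of those that fell (1.02%). The phenformin and LA arrays did not overlap in 34.9% of genes, called or not. Rises were more frequent among brightly expressed genes: 26.2% of genes with a mean level of 9 to 11 rose and 5.11% fell, while 1.30% of genes at or under 5 rose and 2.57% fell. The median difference ran from -0.06 in the dimmest class to 0.34 in the brightest. Quantile normalization, which gives all arrays the same distribution, brought the class medians to between -0.09 and -0.02. It changed the share of called probe sets that were higher in phenformin to 48.8%, against 69.8% in the deposited values, and that share was 62.2% without LA replicate 3. Groups of genes that are bright as a whole, such as the mitochondrial ones, are for this reason given with both scalings.

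**Figure D1:**
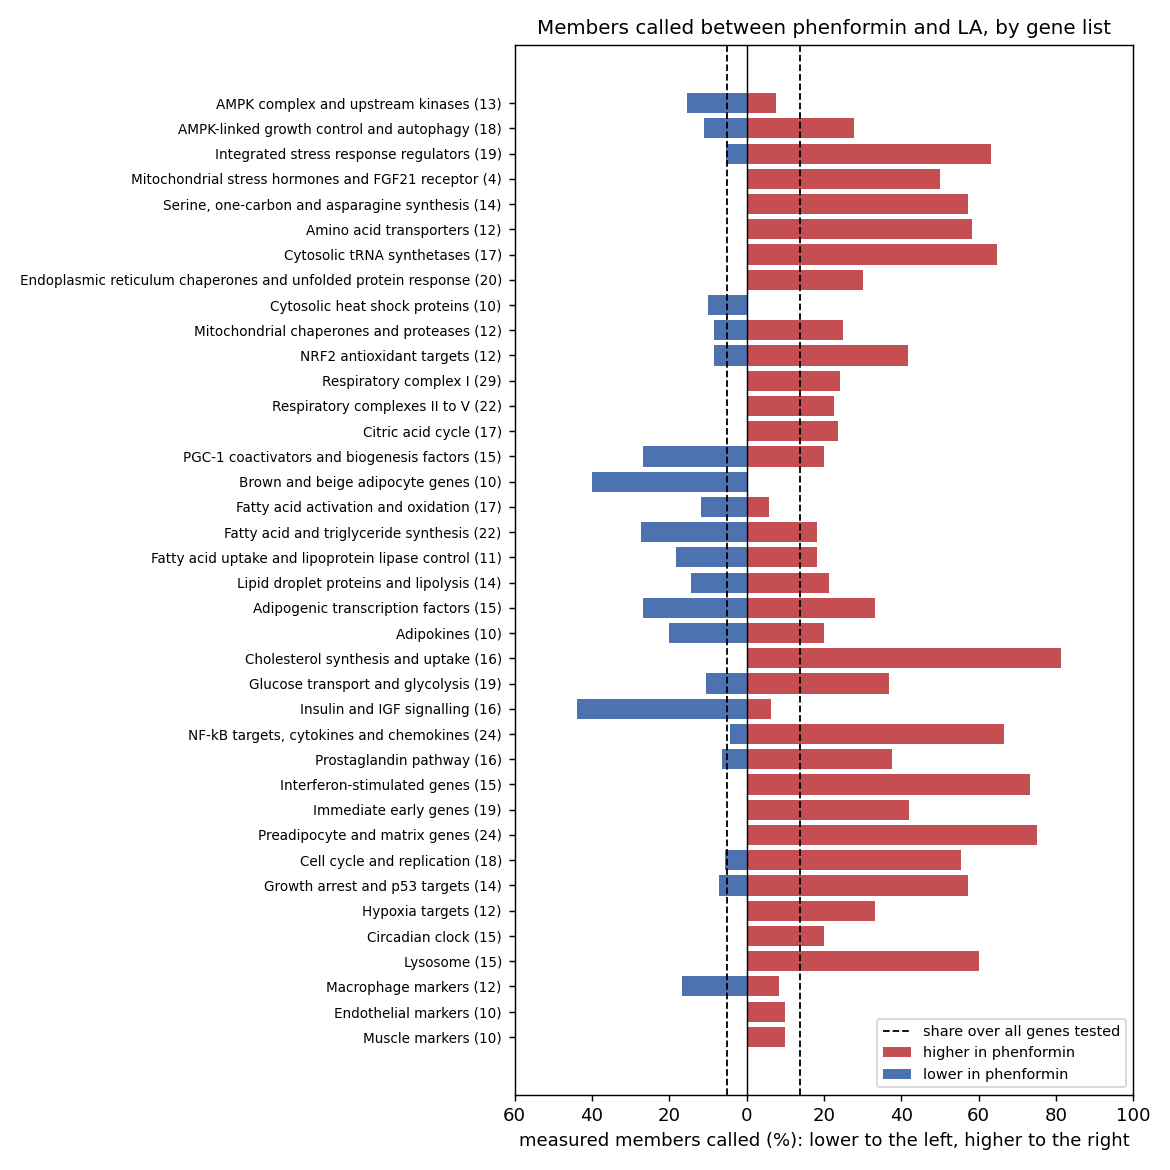
Share of the measured members of each gene list that were called higher (right) or lower (left) in phenformin than in LA, in percent, with the number of measured members in brackets. Dashed lines mark the 13.7% and 5.11% of all genes called in each direction. Cholesterol, matrix and interferon lists reach furthest right, with 13 of 16, 18 of 24 and 11 of 15 members, and insulin signalling furthest left, with 7 of 16.

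The regulators of the integrated stress response rose together. Of 19 measured members, 12 rose and 1 fell, with a median difference of 1.38 (1.05 after quantile normalization), beside 13.7% and 5.11% of all genes. Atf4, the central transcription factor of the response, had levels of 12.71, 12.74 and 12.73 in the phenformin arrays, against 10.69, 10.90 and 10.52 in the LA arrays. All 3 phenformin values lay above all 3 LA values, a difference of 2.02 ± 0.12 (adjusted p = 7.80e-06). Ddit3 encodes CHOP, a partner of ATF4 in prolonged stress, and measured 12.51, 12.62 and 12.90 in the phenformin arrays, against 9.61, 9.75 and 9.68 in the LA arrays. Its difference was 2.999 ± 0.12 (adjusted p = 1.61e-06), 7.99-fold on the linear scale, with the LA arrays close together. Atf3, another stress-induced factor of the same family, was at 9.37, 9.33 and 9.78 in the phenformin arrays, against 6.13, 6.45 and 6.11 in the LA arrays, and rose by 3.26 ± 0.15 (adjusted p = 2.15e-06). Ppp1r15a encodes GADD34, which returns eIF2 to its unphosphorylated form, and rose by 3.28 ± 0.15 (adjusted p = 1.91e-06). The ATF4 targets Chac1, an enzyme that degrades glutathione, and Trib3, a pseudokinase that binds AKT, rose by 2.44 ± 0.10 (adjusted p = 1.65e-06) and 2.27 ± 0.23 (adjusted p = 0.000138). Trib3 stood at 11.60, 11.76 and 11.90 in the phenformin arrays, against 9.84, 9.75 and 8.86 in the LA arrays, where LA replicate 3 was the lowest of the 6 arrays. Atf5, which drives chaperone genes of mitochondria, rose by 2.20 ± 0.20 (adjusted p = 8.04e-05), and the stress factor Nupr1 by 1.38 ± 0.16 (adjusted p = 0.00028). Ddit4, an inhibitor of the growth kinase mTORC1, measured 9.52, 9.85 and 8.69 with phenformin and 7.29, 6.88 and 7.60 with LA and rose by 2.09 ± 0.28 (adjusted p = 0.000636). Cebpb, the C/EBP factor that also opens adipocyte differentiation, rose by 1.37 ± 0.19 (adjusted p = 0.000806). Sesn2, which restrains mTORC1, rose by 0.79 ± 0.18 (adjusted p = 0.0131), and Ppp1r15b, the constitutive relative of Ppp1r15a, by 0.70 ± 0.18 (adjusted p = 0.0213). The dimmer probe sets of Sesn2 and Ppp1r15b rose by 1.71 ± 0.23 (adjusted p = 0.000754) and 1.68 ± 0.33 (adjusted p = 0.006). Cebpg, a C/EBP partner of ATF4, differed by -0.07 ± 0.19 (95% interval -0.49 to 0.36, adjusted p = 0.874) on its brightest probe set. Its probe sets disagreed. The next brightest (mean level 9.54 against 10.17) was called higher in phenformin, by 1.002 ± 0.11 (adjusted p = 0.000267). The dimmest differed by -0.27 ± 0.24 (adjusted p = 0.528). Sesn2 ceased to be called after quantile normalization, and its adjusted p ran from 0.000331 to 0.0645 over the 18 alternatives. Ppp1r15b ceased to be called after quantile normalization, in a fit of only the 6 arrays, without phenformin replicate 1 (0.0896) and without phenformin replicate 2 (0.0738), and its adjusted p ran from 0.000421 to 0.0896 over the 18 alternatives.

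The kinases that phosphorylate eIF2 showed no such pattern. None of the 4 was called: Eif2ak1, which is used by mitochondrial stress, differed by -0.43 ± 0.26 (95% interval -0.998 to 0.14, adjusted p = 0.313). It was called with array weights (adjusted p = 0.0281). Eif2ak3, the sensor of the endoplasmic reticulum, differed by 0.10 ± 0.12 (95% interval -0.16 to 0.36, adjusted p = 0.633) and Eif2ak4, the sensor of missing amino acids, by 0.14 ± 0.19 (95% interval -0.28 to 0.56, adjusted p = 0.709). Eif2ak2, which senses double-stranded RNA, varied between cultures, at 8.56, 8.28 and 6.76 with phenformin and 6.48, 6.64 and 5.96 with LA, and phenformin replicate 3 lay nearest to the LA arrays. Its difference was 1.51 ± 0.48 (95% interval 0.44 to 2.58, adjusted p = 0.0593), with an adjusted p of 0.00809 without phenformin replicate 3 and a range of 0.00257 to 0.602 over the 18 alternatives. These values are of the brightest Eif2ak2 probe set. The others had the opposite sign, at -0.13 ± 0.10 (adjusted p = 0.459) and -1.02 ± 0.30 (adjusted p = 0.0426). Oma1, the mitochondrial protease that passes stress to Eif2ak1 through DELE1, fell by 0.68 ± 0.12 (adjusted p = 0.00285), and Dele1 itself was at 8.22, 8.25 and 8.85 with phenformin and 8.36, 8.46 and 8.38 with LA, which overlapped. Oma1 ceased to be called when the 3′ minus 5′ covariate was fitted, and its adjusted p ran from 0.000996 to 0.0989 over the 18 alternatives.

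**Figure D2:**
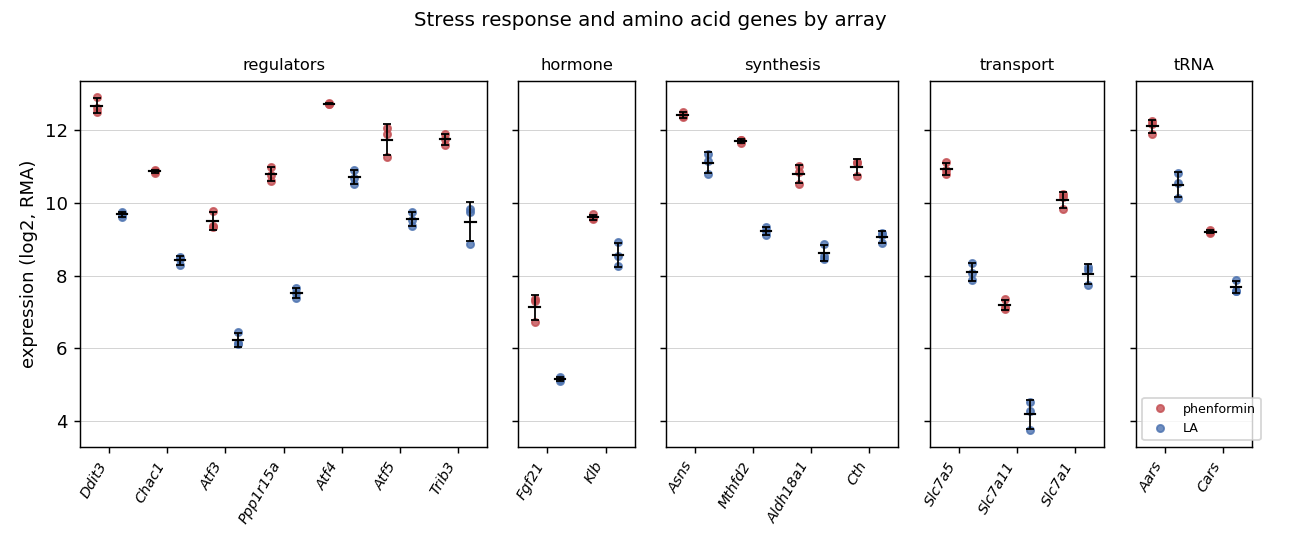
Log2 expression of stress response, hormone, amino acid and tRNA synthetase genes in each array, with phenformin left of LA. Points are arrays, bars are group means ± SD (n = 3). All 3 phenformin arrays lie above all 3 LA arrays for each gene drawn.

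The fasting hormone FGF21, which stressed cells secrete, was measured as Fgf21 at 6.73, 7.30 and 7.35 in the phenformin arrays, against 5.15, 5.22 and 5.09 in the LA arrays. The groups did not overlap and the difference was 1.97 ± 0.18 (adjusted p = 8.24e-05). Klb, the co-receptor that lets fat cells respond to FGF21, was at 9.55, 9.69 and 9.59 with phenformin and 8.55, 8.25 and 8.91 with LA, a rise of 1.04 ± 0.16 (adjusted p = 0.00139). The receptor Fgfr1 differed by 0.64 ± 0.22 (95% interval 0.15 to 1.13, adjusted p = 0.0759), with phenformin replicate 2 (10.06) under LA replicate 2 (10.21), and Fgfr4 by -0.10 ± 0.14 (95% interval -0.40 to 0.20, adjusted p = 0.703). Fgfr1 was called without phenformin replicate 2 (adjusted p = 0.00704). Klb ceased to be called when the 3′ minus 5′ covariate was fitted, and its adjusted p ran from 6.19e-05 to 0.0685 over the 18 alternatives.

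Genes that make, import and charge amino acids rose with the regulators. Of 14 genes of serine, one-carbon and asparagine synthesis 8 rose and 0 fell (median 0.85). Of 12 transporters 7 rose and 0 fell (median 0.76), and of 17 cytosolic tRNA synthetases 11 rose and 0 fell (median 0.86). After quantile normalization the medians of the first 2 lists were 0.51, with 1 fall, and 0.49. Mthfd2, the mitochondrial enzyme of folate-bound one-carbon units, stood at 11.72, 11.74 and 11.65 in the phenformin arrays, against 9.22, 9.33 and 9.13 in the LA arrays, a rise of 2.48 ± 0.11 (adjusted p = 1.91e-06). Asns, which makes asparagine, was at 12.39, 12.498 and 12.36 with phenformin and 11.15, 11.36 and 10.79 with LA and rose by 1.32 ± 0.14 (adjusted p = 0.000199). Aldh18a1, which starts proline synthesis, rose by 2.19 ± 0.18 (adjusted p = 3.62e-05), Cth, which makes cysteine, by 1.93 ± 0.13 (adjusted p = 1.66e-05), and Pck2, the mitochondrial phosphoenolpyruvate carboxykinase, by 0.95 ± 0.13 (adjusted p = 0.000955). Slc7a5, the importer of leucine and other large amino acids, was at 10.92, 10.79 and 11.11 in the phenformin arrays, against 8.07, 8.35 and 7.86 in the LA arrays, and its partner chain Slc3a2 at 11.85, 11.86 and 12.12 with phenformin and 10.10, 10.59 and 10.003 with LA. The rises were 2.85 ± 0.15 (adjusted p = 3.15e-06) and 1.71 ± 0.16 (adjusted p = 8.04e-05). Slc7a11, which imports cystine with the same partner, rose by 3.01 ± 0.20 (adjusted p = 1.19e-05) from an LA level near background, at 4.53, 4.27 and 3.75. The importers Slc7a1, for arginine, and Slc6a9, for glycine, rose by 2.03 ± 0.17 (adjusted p = 4.42e-05) and 1.34 ± 0.16 (adjusted p = 0.00034). Among synthetases, Aars, for alanine, was at 12.25, 11.90 and 12.16 with phenformin and 10.54, 10.82 and 10.14 with LA, and rose by 1.60 ± 0.17 (adjusted p = 0.00017), Cars, for cysteine, by 1.53 ± 0.11 (adjusted p = 2.19e-05), and Yars, for tyrosine, by 1.11 ± 0.10 (adjusted p = 8.81e-05). Eprs, for glutamate and proline, and Nars, for asparagine, rose by 1.23 ± 0.16 (adjusted p = 0.000557) and 1.23 ± 0.18 (adjusted p = 0.00107). With the 3′ minus 5′ covariate 6 synthetases rose.

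ATF4 and its C/EBP partners are known to bind a composite element, TGATGNAAN, so the 250 bases upstream of each gene's start were searched for it on both strands in RefSeq promoter sequences (GRCm38.p6). It was present in 3.89% of 27025 genes. Of the regulator, hormone, amino acid and synthetase genes with a promoter sequence, 10 of the 33 that rose held it, and 0 of the 17 others. A match describes these letters and does not show binding. The lists were made with known ATF4 targets among them, beside other genes such as the kinases that phosphorylate eIF2. Neither share is therefore one of ATF4 targets alone. Windows of 60 bases of 6 such promoters, chosen to show 2 regulators, a hormone, a synthesis enzyme, a transporter and a synthetase of the genes described above, follow 5′ to 3′ on the gene's strand, with the element in capitals. It reads TGATG on the gene's strand in Asns and CATCA, its reverse complement, in the others except Slc7a11, which holds both. The windows are chr1:191183402-191183461 (minus strand), chr2:119351031-119351090 (plus strand), chr7:45615588-45615647 (minus strand), chr6:7693210-7693269 (minus strand), chr3:50443637-50443696 (minus strand) and chr8:111033712-111033771 (plus strand).
Atf3: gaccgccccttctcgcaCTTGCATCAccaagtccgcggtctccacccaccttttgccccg
Chac1: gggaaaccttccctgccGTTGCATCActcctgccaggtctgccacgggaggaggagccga
Fgf21: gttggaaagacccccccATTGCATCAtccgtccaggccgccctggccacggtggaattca
Asns: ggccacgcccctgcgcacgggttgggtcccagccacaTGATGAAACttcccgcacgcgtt
Slc7a11: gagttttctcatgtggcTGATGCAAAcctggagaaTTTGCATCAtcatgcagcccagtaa
Aars: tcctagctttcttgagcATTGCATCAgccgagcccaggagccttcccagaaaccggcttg

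Folding systems moved unevenly. Of 20 genes of the endoplasmic reticulum, 6 rose and 0 fell, with a median of 0.41. After quantile normalization 4 rose and 3 fell, with a median of 0.09, and with the covariate the median was 0.63. With array weights 2 fell. Edem1 and Herpud1, which serve the disposal of misfolded proteins, were at 10.81, 10.87 and 11.03 with phenformin and 9.34, 9.28 and 8.86 with LA, and at 10.66, 10.80 and 10.97 with phenformin and 9.46, 9.496 and 9.57 with LA. Neither overlapped between groups, and the rises were 1.74 ± 0.15 (adjusted p = 6.47e-05) and 1.30 ± 0.14 (adjusted p = 0.000224). Hspa5, the chief chaperone of that compartment, rose by 1.06 ± 0.20 (adjusted p = 0.0053). The heat shock proteins of the cytosol, which refold damaged proteins, did not share in this: of 10, 0 rose and 1 fell, and the median was -0.30. Hspb1 was at 8.65, 8.62 and 8.68 with phenformin and 9.05, 9.33 and 8.60 with LA, a difference of -0.34 ± 0.18 (95% interval -0.74 to 0.05, adjusted p = 0.24). Hspb1 was called after quantile normalization (adjusted p = 0.0222), with array weights (0.018) and without LA replicate 3 (0.031). The number of heat shock genes that fell was 5 after quantile normalization, with a median of -0.57, 5 with array weights (median -0.496) and 6 without LA replicate 3 (median -0.55). It was 0 with the covariate, in a fit of only the 6 arrays, over mean probe sets, and without LA replicates 1 or 2 or phenformin replicates 1 or 3. NRF2 is a transcription factor for antioxidant genes, and of 12 of its targets 5 rose and 1 fell. Hmox1, which breaks down heme, was at 12.33, 12.21 and 12.63 in the phenformin arrays, against 8.79, 8.97 and 8.83 in the LA arrays, a rise of 3.53 ± 0.16 (adjusted p = 1.91e-06) or 11.5-fold. Me1, a source of NADPH, rose by 1.64 ± 0.14 (adjusted p = 5.14e-05) and Nfe2l2, which encodes NRF2, by 1.32 ± 0.12 (adjusted p = 9.10e-05).

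Genes of the mitochondria, the organelle that phenformin acts on, were slightly higher as groups in the deposited values and not after quantile normalization. Over all genes 13.7% rose and 5.11% fell. Of genes with a mean level of 9 to 11, 26.2% rose (median difference 0.25), and of those above 11, 28.0% rose (median 0.34). The shares that rose were 24.1% for complex I, 22.7% for complexes II to V, 23.5% for the citric acid cycle and 25% for mitochondrial chaperones and proteases. These counts do not set the lists apart from bright genes. Of 29 subunits of complex I 7 rose and 0 fell, with a median of 0.28. The counts after quantile normalization were 1 and 3 with a median of -0.09, and with the 3′ minus 5′ covariate 2 and 0. Without LA replicate 3 the number of falls was 2 and the median 0.09, and the median was 0.13 with array weights and 0.16 over mean probe sets. Ndufa4, a respiratory subunit first assigned to complex I, was at 13.42, 13.45 and 13.27 in the phenformin arrays, against 12.69, 12.78 and 12.26 in the LA arrays, and its rise of 0.80 ± 0.14 (adjusted p = 0.00337) kept its call under all 18 alternatives. Of 22 subunits of complexes II to V, 5 rose (1 after quantile normalization, 2 with the covariate and 3 without phenformin replicate 1, in a fit of only the 6 arrays or over mean probe sets) and 0 fell. Cox5a, of cytochrome oxidase, rose by 0.95 ± 0.16 (adjusted p = 0.00296), with 13.06, 13.10 and 12.95 with phenformin and 12.18, 12.37 and 11.71 with LA. Of 17 citric acid cycle genes 4 rose and 0 fell, while after quantile normalization 0 rose. The cycle count was 7 without LA replicate 2, 2 without phenformin replicate 1 and 2 without phenformin replicate 2, with the covariate or in a fit of only the 6 arrays. Citrate synthase, Cs, rose by 0.72 ± 0.15 (adjusted p = 0.00859). Of 12 mitochondrial chaperones and proteases, 3 rose and 1 fell. That count of 3 was 1 without LA replicate 1, 1, 0 and 1 without phenformin replicates 1, 2 and 3, and 1 after quantile normalization and 1 with the covariate. Cs ceased to be called after quantile normalization, and its adjusted p ran from 0.00169 to 0.0614 over the 18 alternatives. Cox5a ceased to be called over the mean of a gene's probe sets, and its adjusted p ran from 0.000526 to 0.076 over the 18 alternatives.

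The PGC-1 coactivators Ppargc1a and Ppargc1b, which drive mitochondrial gene expression, moved in opposite directions. Ppargc1a, the inducible one, was at 7.497, 8.004 and 7.57 in the phenformin arrays, against 6.51, 6.42 and 6.38 in the LA arrays, a rise of 1.26 ± 0.18 (adjusted p = 0.00106) that all 5 of its probe sets shared. Ppargc1b was at 9.02, 8.94 and 8.61 in the phenformin arrays, against 9.59, 9.92 and 9.82 in the LA arrays, a difference of -0.92 ± 0.14 (adjusted p = 0.00124). No array of one group overlapped with the other for either gene. Nrf1 and Gabpb1, transcription factors of nuclear genes for mitochondria, rose by 1.07 ± 0.12 (adjusted p = 0.00029) and 1.05 ± 0.14 (adjusted p = 0.000597), while Sirt3, a mitochondrial deacetylase, fell by 0.80 ± 0.15 (adjusted p = 0.00552). In all, 3 of 15 such factors rose and 4 fell, and 2 fell without LA replicate 2, without phenformin replicate 1 or with the covariate. Genes that mark brown or beige fat, which burns fuel for heat, did not rise: 0 of 10 rose and 4 fell (2 with the covariate). Cidea, a lipid droplet protein of such cells, was at 4.86, 4.73 and 4.22 in the phenformin arrays, against 8.53, 8.60 and 6.20 in the LA arrays, where LA replicate 3 lay between the other LA arrays and the phenformin arrays. Its difference was -3.17 ± 0.51 (adjusted p = 0.00207). The brown fat forms of cytochrome oxidase subunits, Cox7a1 and Cox8b, fell, with differences of -1.27 ± 0.19 (adjusted p = 0.00147) and -1.14 ± 0.20 (adjusted p = 0.0037). Ppargc1b ceased to be called when the 3′ minus 5′ covariate was fitted, and its adjusted p ran from 0.000479 to 0.0616 over the 18 alternatives. Cidea ceased to be called when the 3′ minus 5′ covariate was fitted, and its adjusted p ran from 5.71e-06 to 0.116 over the 18 alternatives.

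AMPK itself is a complex of a catalytic α, a scaffolding β and a γ subunit that senses AMP. Of 13 measured genes of the complex and its upstream kinases, 1 rose (7.69%) and 2 fell (15.4%), beside 13.7% and 5.11% of all genes. Counts this small do not set the list apart from other genes. The number that fell was 4 after quantile normalization or with array weights, 1 with the covariate, over mean probe sets or without LA replicate 1, LA replicate 2 or phenformin replicate 2, and 0 without phenformin replicate 1. The number that rose was 3 over mean probe sets and 2 with array weights, median centring or the replicate block or without phenformin replicate 3. Prkaa2, the α2 subunit, was at 6.05, 6.32 and 6.06 in the phenformin arrays, against 5.21, 5.23 and 5.25 in the LA arrays, a rise of 0.91 ± 0.12 (adjusted p = 0.00058) that kept its call under all 18 alternatives. Prkaa1, the α1 subunit, varied between cultures at 7.70, 8.23 and 8.74 with phenformin and 8.56, 8.52 and 7.18 with LA, and its difference was 0.13 ± 0.500 (95% interval -0.97 to 1.24, adjusted p = 0.906). Prkag2, the γ2 subunit, was at 6.89, 6.89 and 6.69 with phenformin and 7.81, 7.85 and 7.29 with LA, a difference of -0.82 ± 0.21 (adjusted p = 0.023). Camkk2, a calcium-driven kinase that activates AMPK, was at 7.46, 7.67 and 7.70 with phenformin and 8.38, 8.09 and 8.06 with LA, a difference of -0.57 ± 0.13 (adjusted p = 0.0113). Stk11, which encodes the main upstream kinase LKB1, differed by -0.37 ± 0.14 (95% interval -0.68 to -0.06, adjusted p = 0.107). The β subunits Prkab1 and Prkab2 differed by 0.16 ± 0.10 (95% interval -0.07 to 0.39, adjusted p = 0.356) and 0.46 ± 0.15 (95% interval 0.13 to 0.79, adjusted p = 0.0587), and the γ1 subunit Prkag1 by -0.54 ± 0.17 (95% interval -0.92 to -0.16, adjusted p = 0.059). Prkag1 was called lower after quantile normalization (adjusted p = 0.00473), with array weights (0.00576), with the covariate (0.0289), without dim probe sets (0.0457), without phenformin replicate 3 (0.0322) and without CLA replicate 3 (0.0322). Its adjusted p ran from 0.00473 to 0.739 over the 18 alternatives. Stk11 was called lower after quantile normalization (adjusted p = 0.0128) and with array weights (0.0362). Prkab2 was called higher without phenformin replicate 3 (adjusted p = 0.0112), over mean probe sets (0.0152), with array weights (0.0162), with the replicate block (0.0397) and after median centring (0.0485), and Prkab1 over mean probe sets (0.0249). The other members not called were Prkag3, Cab39, Cab39l, Strada and Stradb, with differences of -0.17, 0.35, 0.18, 0.07 and 0.11. Prkag2 ceased to be called when the 3′ minus 5′ covariate was fitted, without LA replicate 1 (0.0832), without LA replicate 2 (0.082), without phenformin replicate 1 (0.0604), without phenformin replicate 2 (0.0581) and without phenformin replicate 3 (0.0697), and its adjusted p ran from 0.00227 to 0.144 over the 18 alternatives. Camkk2 ceased to be called when the 3′ minus 5′ covariate was fitted, over the mean of a gene's probe sets and without phenformin replicate 1 (0.0537), and its adjusted p ran from 0.00106 to 0.869 over the 18 alternatives.

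Downstream of AMPK lie growth control through mTORC1 and autophagy, the digestion of a cell's own parts. Of 18 such genes 5 rose and 2 fell (3 rises after quantile normalization and 1 with the covariate, and 0 falls with the covariate or over mean probe sets). Sqstm1, which encodes the cargo receptor p62, was at 12.54, 12.54 and 12.90 in the phenformin arrays, against 11.13, 11.41 and 10.82 in the LA arrays, a rise of 1.55 ± 0.16 (adjusted p = 0.000172). Eif4ebp1, a brake on translation, was at 12.70, 12.69 and 12.81 with phenformin and 11.47, 11.92 and 11.98 with LA, a rise of 0.95 ± 0.14 (adjusted p = 0.00126). Rptor, the mTORC1 subunit that AMPK phosphorylates, fell by 0.70 ± 0.13 (adjusted p = 0.00376). Of 15 lysosomal genes 9 rose and 0 fell, with a median of 0.52. The median was 0.17 after quantile normalization and 0.33 over mean probe sets. The number of rises was 2 after quantile normalization, 1 with the covariate, and 4 without LA replicate 1, without phenformin replicate 1 or without phenformin replicate 3. Npc1, which lets cholesterol leave the lysosome, was at 8.43, 8.36 and 7.71 with phenformin and 6.25, 6.43 and 6.12 with LA, a rise of 1.90 ± 0.25 (adjusted p = 0.000622). Eif4ebp1 ceased to be called when the 3′ minus 5′ covariate was fitted and after quantile normalization, and its adjusted p ran from 0.00022 to 0.105 over the 18 alternatives. Rptor ceased to be called when the 3′ minus 5′ covariate was fitted and over the mean of a gene's probe sets, and its adjusted p ran from 0.000401 to 0.128 over the 18 alternatives.

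Genes for making fat split between falls and rises. Of 22 measured genes of fatty acid and triglyceride synthesis, 4 rose and 6 fell, beside 13.7% and 5.11% of all genes. After quantile normalization 1 rose and 7 fell. Pnpla3, a lipid droplet protein induced by feeding, was at 8.26, 8.23 and 8.11 in the phenformin arrays, against 10.26, 10.26 and 9.79 in the LA arrays, a difference of -1.90 ± 0.16 (adjusted p = 4.64e-05). Gpam, which attaches the first fatty acid to glycerol phosphate, was at 10.22, 10.22 and 9.80 in the phenformin arrays, against 11.89, 11.70 and 11.15 in the LA arrays, a difference of -1.504 ± 0.19 (adjusted p = 0.000553). Pck1, which supplies that glycerol in fat cells, was at 4.88, 4.95 and 4.82 in the phenformin arrays, against 8.29, 8.14 and 6.67 in the LA arrays. LA replicate 3 lay below the other LA arrays and above every phenformin array, and the difference was -2.82 ± 0.34 (adjusted p = 0.000368). Of the acetyl-CoA carboxylases that AMPK restrains, Acacb, the mitochondrial form, fell by 1.11 ± 0.15 (adjusted p = 0.000704), and Acaca, the cytosolic form that feeds fat synthesis, was at 10.56, 10.35 and 10.55 with phenformin and 10.16, 10.37 and 9.79 with LA, a difference of 0.38 ± 0.15 (95% interval 0.05 to 0.71, adjusted p = 0.115). Fatty acid synthase, Fasn, differed by 0.12 ± 0.20 (95% interval -0.31 to 0.56, adjusted p = 0.746) and the desaturase Scd1 by 0.38 ± 0.20 (95% interval -0.07 to 0.83, adjusted p = 0.258). Without LA replicate 2 both Acaca and Scd1 were called higher (adjusted p = 0.0477 and 0.0465). Srebf1, the lipogenic transcription factor, was at 9.38, 9.44 and 9.08 with phenformin and 9.66, 10.02 and 9.94 with LA, a difference of -0.58 ± 0.14 (adjusted p = 0.0188). Elovl6, which lengthens palmitate, was at 7.54, 7.56 and 7.501 in the phenformin arrays, against 6.10, 5.84 and 5.51 in the LA arrays, a rise of 1.72 ± 0.15 (adjusted p = 5.73e-05), and Thrsp, a lipogenic nuclear protein, rose by 0.65 ± 0.12 (adjusted p = 0.00449). Srebf1 ceased to be called when the 3′ minus 5′ covariate was fitted, without LA replicate 2 (0.0689) and without phenformin replicate 3 (0.0664), and its adjusted p ran from 0.00679 to 0.325 over the 18 alternatives. Thrsp ceased to be called when the 3′ minus 5′ covariate was fitted and after quantile normalization, and its adjusted p ran from 0.00152 to 0.289 over the 18 alternatives. The 4 rises of the list became 2 without CLA replicate 1, CLA replicate 2, LA replicate 1, phenformin replicate 1 or phenformin replicate 3, in a fit of only the 6 arrays or with the replicate block, and 1 with the covariate.

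Lipid droplet and fat mobilization genes also went both ways, with 3 of 14 higher (1 after quantile normalization or with the covariate) and 2 lower (1 with the covariate). Of all genes 13.7% rose and 5.11% fell. Plin2, which coats small droplets, was at 13.06, 13.06 and 13.07 in the phenformin arrays, against 11.70, 12.08 and 11.30 in the LA arrays, and the phenformin arrays were nearly equal. The rise was 1.37 ± 0.17 (adjusted p = 0.000479). Plin4, which coats nascent droplets, was at 11.17, 10.92 and 10.99 with phenformin and 12.09, 12.36 and 11.64 with LA, a difference of -1.004 ± 0.17 (adjusted p = 0.00283). Ces1d, a lipase of fat cells, was at 8.46, 8.10 and 8.77 with phenformin and 10.57, 10.55 and 9.75 with LA, a difference of -1.84 ± 0.26 (adjusted p = 0.000948) shown by all 3 of its probe sets. Lpl, the lipase that frees fatty acids from lipoproteins, was at 14.32, 14.28 and 14.34 with phenformin and 14.02, 14.35 and 13.35 with LA, a difference of 0.40 ± 0.21 (95% interval -0.06 to 0.86, adjusted p = 0.236). Gpihbp1, the protein that anchors Lpl on capillary cells, was at 4.64, 4.86 and 5.26 with phenformin and 5.77, 5.78 and 5.66 with LA, a difference of -0.82 ± 0.15 (adjusted p = 0.00407), and Lmf1, needed for folding Lpl, rose by 0.71 ± 0.13 (adjusted p = 0.00449). Of 11 genes of uptake 2 rose and 2 fell. The rises were 1 after quantile normalization or without phenformin replicates 1 or 2, and the falls 1 with the covariate, in a fit of only the 6 arrays, or without LA replicates 1 or 2 or phenformin replicates 1 or 2. Of 17 genes of fatty acid oxidation 1 rose and 2 fell, and after quantile normalization 4 fell. With the covariate 0 rose and 0 fell, and 1 fell without LA replicate 1, LA replicate 3, phenformin replicate 1 or phenformin replicate 3. Cpt1a, the gate of fatty acids into mitochondria, was at 7.99, 7.98 and 8.07 with phenformin and 7.93, 7.94 and 7.70 with LA, a difference of 0.16 ± 0.12 (95% interval -0.11 to 0.42, adjusted p = 0.448), and Pdk4, which spares glucose when fat is burned, differed by 0.43 ± 0.18 (95% interval 0.04 to 0.83, adjusted p = 0.14). Ppara, a receptor for fatty acids that drives their oxidation, was at 4.80, 4.38 and 4.29 with phenformin and 5.45, 5.33 and 5.53 with LA, a difference of -0.95 ± 0.20 (adjusted p = 0.00994). Plin4 ceased to be called when the 3′ minus 5′ covariate was fitted, and its adjusted p ran from 3.77e-05 to 0.0903 over the 18 alternatives. Lmf1 ceased to be called when the 3′ minus 5′ covariate was fitted, and its adjusted p ran from 0.000726 to 0.0536 over the 18 alternatives. Ppara ceased to be called when the 3′ minus 5′ covariate was fitted, and its adjusted p ran from 0.00304 to 0.242 over the 18 alternatives.

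**Figure D3:**
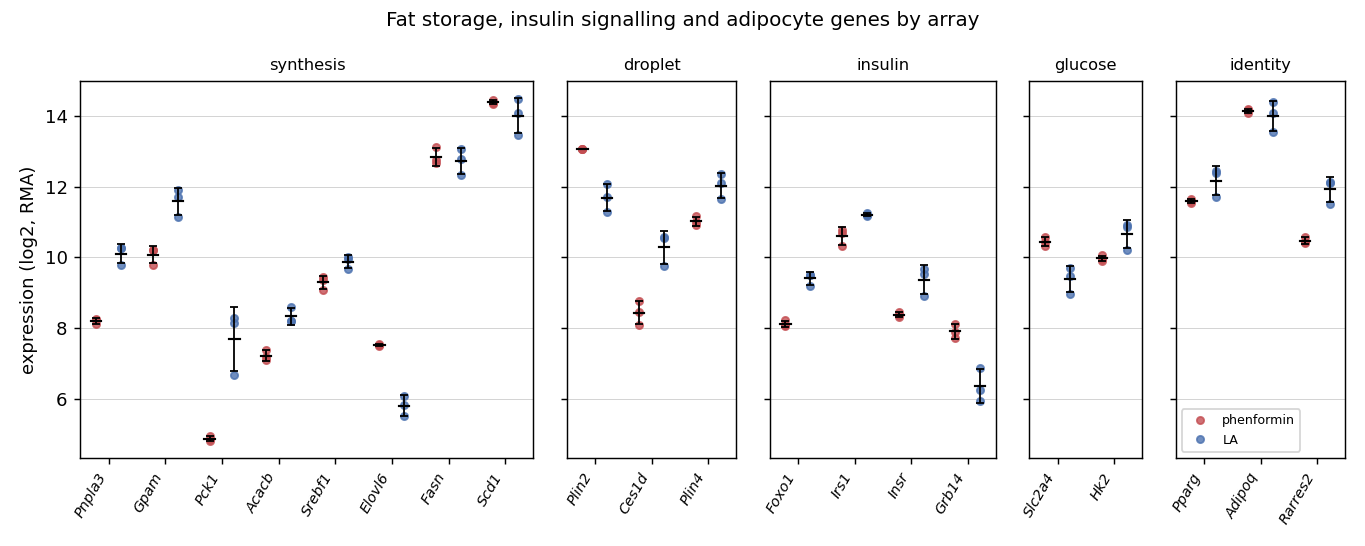
Log2 expression of fat synthesis, lipid droplet, insulin signalling, glucose and adipocyte genes in each array, with phenformin left of LA. Points are arrays, bars are means ± SD (n = 3). Pnpla3, Gpam, Pck1 and Foxo1 lie lower in every phenformin array, Elovl6, Plin2, Grb14 and Slc2a4 higher, and the groups overlap for Fasn, Scd1 and Adipoq.

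Several insulin signalling genes were lower in phenformin: of 16, 1 rose and 7 fell, with a median of -0.17. The median was -0.43 after quantile normalization and -0.01 over mean probe sets. Foxo1, the transcription factor that insulin holds out of the nucleus, was at 8.09, 8.22 and 8.06 in the phenformin arrays, against 9.51, 9.52 and 9.21 in the LA arrays, a difference of -1.29 ± 0.14 (adjusted p = 0.000199) shown by 3 of its 4 probe sets. Irs1, the adaptor beneath the receptor, was at 10.79, 10.70 and 10.32 in the phenformin arrays, against 11.18, 11.20 and 11.26 in the LA arrays, a difference of -0.60 ± 0.13 (adjusted p = 0.0116), and Pik3r1, a subunit of the kinase it recruits, fell by 0.86 ± 0.19 (adjusted p = 0.0108). The insulin receptor Insr was at 8.38, 8.45 and 8.33 with phenformin and 9.68, 9.53 and 8.90 with LA on its brightest probe set, a difference of -0.98 ± 0.18 (adjusted p = 0.00434), but of its other probe sets 1 rose, by 0.66 ± 0.17 (adjusted p = 0.0240), and the mean of all 3 differed by 0.02 (adjusted p = 0.924). Grb14, an inhibitor of the receptor, was the 1 gene that rose, at 7.89, 8.13 and 7.72 in the phenformin arrays, against 6.26, 5.96 and 6.89 in the LA arrays, by 1.54 ± 0.21 (adjusted p = 0.00076). The 7 falls became 4 without LA replicate 1 or any 1 phenformin array or over mean probe sets, and 1 with the covariate. Irs1 ceased to be called when the 3′ minus 5′ covariate was fitted, and its adjusted p ran from 0.0061 to 0.254 over the 18 alternatives. Pik3r1 ceased to be called when the 3′ minus 5′ covariate was fitted, and its adjusted p ran from 0.00149 to 0.442 over the 18 alternatives. Insr ceased to be called when the 3′ minus 5′ covariate was fitted and over the mean of a gene's probe sets, and its adjusted p ran from 9.21e-05 to 0.924 over the 18 alternatives. In glucose use, 7 of 19 genes rose and 2 fell (4 and 3 after quantile normalization, 1 and 0 with the covariate). The falls were 0 without phenformin replicate 1, and 1 in a fit of only the 6 arrays, over mean probe sets, or without LA replicates 1 or 2 or phenformin replicates 2 or 3. Slc2a4, which encodes the insulin-responsive transporter GLUT4, was at 10.59, 10.33 and 10.44 in the phenformin arrays, against 8.98, 9.72 and 9.48 in the LA arrays, a rise of 1.06 ± 0.19 (adjusted p = 0.00362) on its brightest probe set. Its other probe set, nearly as bright (mean level 9.49 against 9.55), differed by only 0.06 ± 0.15 (adjusted p = 0.841). Slc2a1, for the basal transporter GLUT1, was at 9.71, 10.12 and 9.91 with phenformin and 10.12, 10.05 and 8.75 with LA, a difference of 0.27 ± 0.32 (95% interval -0.43 to 0.97, adjusted p = 0.646). Pfkp and Pfkfb3, which speed the committed step of glycolysis, rose by 0.98 ± 0.18 (adjusted p = 0.0036) and 1.22 ± 0.26 (adjusted p = 0.00852). Slc2a4 ceased to be called when the 3′ minus 5′ covariate was fitted, and its adjusted p ran from 0.00136 to 0.0871 over the 18 alternatives. Pfkfb3 ceased to be called when the 3′ minus 5′ covariate was fitted, and its adjusted p ran from 0.00151 to 0.309 over the 18 alternatives.

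Fat cell identity was mixed in the same way. Pparg, the master regulator of fat cells, was at 11.53, 11.65 and 11.61 in the phenformin arrays, against 12.38, 12.43 and 11.70 in the LA arrays. Every phenformin array lay below every LA array, LA replicate 3 by the least, and the difference was -0.58 ± 0.19 (95% interval -0.99 to -0.16, adjusted p = 0.0619), with an adjusted p of 0.00261 without LA replicate 3 and a range of 0.000296 to 0.291 over the 18 alternatives. Cebpa, its partner, differed by 0.10 ± 0.19 (95% interval -0.33 to 0.52, adjusted p = 0.81) and overlapped. Of 15 adipogenic transcription factors, 5 rose and 4 fell. That last count was 2 without LA replicate 1, LA replicate 2 or phenformin replicate 2 or over mean probe sets, and 1 with the covariate. Klf4, Klf5 and Cebpd, which act early in differentiation, rose by 2.76 ± 0.15 (adjusted p = 5.32e-06), 1.81 ± 0.20 (adjusted p = 0.000242) and 1.48 ± 0.14 (adjusted p = 8.04e-05). Klf4 stood at 8.38, 8.65 and 8.43 with phenformin and 5.98, 5.76 and 5.43 with LA. Zfp423, a factor of committed preadipocytes, was at 9.05, 8.82 and 8.30 with phenformin and 7.59, 7.32 and 7.40 with LA, a rise of 1.29 ± 0.18 (adjusted p = 0.00076). Among secreted products, adiponectin, Adipoq, was at 14.16, 14.08 and 14.19 with phenformin and 14.07, 14.38 and 13.53 with LA and differed by 0.15 ± 0.18 (95% interval -0.26 to 0.55, adjusted p = 0.67), and resistin, Retn, by -0.19 ± 0.12 (95% interval -0.46 to 0.08, adjusted p = 0.342). After quantile normalization Retn was called lower (adjusted p = 0.0185). Rarres2, which encodes the attractant chemerin, was at 10.43, 10.40 and 10.59 in the phenformin arrays, against 12.10, 12.15 and 11.52 in the LA arrays, a difference of -1.45 ± 0.16 (adjusted p = 0.000245) in all 3 probe sets. Lcn2, an iron-binding acute phase protein, was at 11.67, 11.75 and 12.04 with phenformin and 9.81, 10.34 and 10.59 with LA, a rise of 1.57 ± 0.19 (adjusted p = 0.000364). Leptin, Lep, was near background in both groups, at 3.80, 3.85 and 3.80 with phenformin and 3.76, 3.80 and 4.67 with LA.

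Cholesterol synthesis had the largest share of rises among the 38 lists. Of 16 measured genes 13 rose and 0 fell, with a median of 1.14 in the deposited values and 0.81 after quantile normalization, where 12 rose. Lss, which closes the sterol ring, was at 11.73, 11.66 and 11.66 in the phenformin arrays, against 9.86, 10.03 and 9.74 in the LA arrays, a rise of 1.81 ± 0.11 (adjusted p = 7.90e-06). Mvd, of the mevalonate steps, was at 10.07, 9.97 and 10.12 in the phenformin arrays, against 8.31, 8.61 and 8.45 in the LA arrays, a rise of 1.60 ± 0.11 (adjusted p = 1.65e-05). Both genes were tight within groups, with no overlap. Fdps, which makes farnesyl diphosphate, rose by 1.22 ± 0.13 (adjusted p = 0.000203) and Dhcr7, the last enzyme of the path, by 1.499 ± 0.17 (adjusted p = 0.000281). The sterol regulatory element TCACNCCAC, searched as above, was in 1.22% of all promoters, 0 of the 10 with a promoter sequence that rose and 1 of the other 3. No match says only that these letters are not in the 250 bases searched.

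Inflammatory genes rose over a wide range of sizes. Of 24 NF-kB targets, cytokines and chemokines, 16 rose and 1 fell, with a median of 1.49 (0.89 over mean probe sets). Saa3, an acute phase protein of fat cells, was at 12.52, 12.60 and 12.58 in the phenformin arrays, against 5.44, 5.47 and 6.49 in the LA arrays. This rise, 6.77 ± 0.23 (adjusted p = 6.87e-07) or 109-fold, was the largest of any gene called without overlap. Cxcl5, a neutrophil attractant, was at 10.62, 10.70 and 10.17 in the phenformin arrays, against 4.25, 3.96 and 5.64 in the LA arrays, a rise of 5.88 ± 0.37 (adjusted p = 9.94e-06). In both, LA replicate 3 was the highest LA array. The monocyte attractants Ccl2 and Ccl7 were at 9.65, 9.65 and 9.68 with phenformin and 7.04, 6.90 and 6.90 with LA, and at 8.82, 8.80 and 8.64 with phenformin and 6.35, 6.22 and 5.84 with LA, with rises of 2.71 ± 0.10 (adjusted p = 8.71e-07) and 2.62 ± 0.16 (adjusted p = 7.61e-06). Csf1, a growth factor of macrophages, rose by 2.05 ± 0.11 (adjusted p = 3.15e-06) in all 4 probe sets, and Vcam1, which binds white cells, by 2.13 ± 0.13 (adjusted p = 9.20e-06) in all 3. Il6 was at 5.58, 6.25 and 6.11 with phenformin and 3.32, 3.24 and 4.29 with LA, above background in 1 LA array, and rose by 2.36 ± 0.31 (adjusted p = 0.000656). The NF-kB element, GGGA, any base and TTTCC, searched in the same way, was in 0.414% of all promoters, in 4 of the 9 with a promoter sequence that rose and in 2 of the other 7. Known NF-kB targets were put in this list, so these shares do not test the factor. Of 12 macrophage markers, 1 rose (Cybb) and 2 fell (Cd14 and Adgre1), and their log2 summed level was 9.03 to 9.24 with phenformin and 9.28 to 10.57 with LA. The markers Itgam, Mrc1, Ptprc and Aif1 were not above background in either group, nor was Adgre1 with phenformin. Cd14 ceased to be called when the 3′ minus 5′ covariate was fitted, with the replicate block, without CLA replicate 1 (0.0566), without LA replicate 1 (0.0634), without LA replicate 3 (0.0892), without phenformin replicate 1 (0.119) and without phenformin replicate 3 (0.0942), and its adjusted p ran from 0.0188 to 0.31 over the 18 alternatives. Adgre1 ceased to be called when the 3′ minus 5′ covariate was fitted, after quantile normalization, in a fit of only the 6 arrays, with the replicate block, without CLA replicate 1 (0.0647), without CLA replicate 3 (0.0539), without LA replicate 1 (0.123), without LA replicate 2 (0.134), without phenformin replicate 1 (0.115), without phenformin replicate 2 (0.18) and without phenformin replicate 3 (0.0656), and its adjusted p ran from 0.00888 to 0.307 over the 17 alternatives.

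Prostaglandins are lipid signals made from fatty acids that phospholipases free and cyclooxygenases convert. Ptgs2, the inducible cyclooxygenase, was at 7.01, 7.41 and 6.68 in the phenformin arrays, against 3.19, 2.84 and 3.13 in the LA arrays. These values are of its brightest probe set, which was not above background in any LA array. The rise on that probe set is therefore a bound of at least 8.38-fold (adjusted p = 2.54e-06). The other Ptgs2 probe set rose by less, 1.33 ± 0.22 (adjusted p = 0.00246). Pla2g4a, the phospholipase that frees arachidonic acid, was at 8.68, 9.24 and 9.41 in the phenformin arrays, against 6.40, 6.04 and 5.99 in the LA arrays, a rise of 2.97 ± 0.21 (adjusted p = 1.87e-05). Ptges, which makes prostaglandin E, rose by 1.29 ± 0.15 (adjusted p = 0.000334), the phospholipase Pla2g2e by 1.72 ± 0.18 (adjusted p = 0.000164), and the prostacyclin receptor Ptgir, at 5.57, 6.32 and 5.87 with phenformin and 3.65, 4.19 and 4.21 with LA, by 1.91 ± 0.20 (adjusted p = 0.000179). In all 6 of 16 genes of the pathway rose and 1 fell, with a median of 0.12 (0.07 after quantile normalization, 0.20 without LA replicate 3 and 0.33 without dim probe sets). The early growth genes of the AP-1 family, which answer many stimuli, rose too: of 19 immediate early genes 8 rose and 0 fell (5 rises with the covariate and 2 falls after quantile normalization). Fos was at 8.70, 8.99 and 7.93 in the phenformin arrays, against 6.38, 6.22 and 5.67 in the LA arrays, a rise of 2.45 ± 0.29 (adjusted p = 0.000324). Junb, Jund and Jun rose by 1.76 ± 0.16 (adjusted p = 7.19e-05), 1.55 ± 0.15 (adjusted p = 0.000101) and 1.32 ± 0.16 (adjusted p = 0.000445), and Dusp6, a phosphatase that ERK signalling induces, by 1.56 ± 0.16 (adjusted p = 0.000152).

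Interferon-stimulated genes, which cells switch on against viruses, rose in 11 of 15 cases and fell in 0, with a median of 0.79. With the covariate 5 rose. Ifit1, which binds foreign RNA, was at 7.47, 8.42 and 8.38 in the phenformin arrays, against 4.53, 4.42 and 4.69 in the LA arrays, and phenformin replicate 1 was lowest of its group. The rise was 3.54 ± 0.27 (adjusted p = 2.32e-05). Oasl2, a relative of the antiviral oligoadenylate synthetases, was at 6.16, 6.51 and 7.13 with phenformin and 3.77, 3.67 and 4.39 with LA, above background in 1 LA array, a rise of 2.65 ± 0.26 (adjusted p = 0.000107). Ifit2 rose by 2.01 ± 0.23 (adjusted p = 0.0003), and Irf9, part of the factor that interferons activate, by 1.21 ± 0.17 (adjusted p = 0.00105), with 7.11, 7.38 and 7.24 with phenformin and 6.06, 5.99 and 6.04 with LA. The interferon-stimulated response element, GAAA, 2 bases of any kind and GAAA again, was found by the same search in 3.46% of all promoters, 5 of the 9 with a promoter sequence that rose and 1 of the other 3. This list was made of genes known to answer interferon, so these shares do not test the pathway. The promoters of 3 genes that rose are shown as above, at chr19:34640769-34640828 (plus strand), chr19:34583357-34583416 (plus strand) and chr12:26456529-26456588 (minus strand), with the element in capitals. It stands in each as its reverse complement, once in Rsad2 and at 2 places in Ifit1 and Ifit3.
Ifit1: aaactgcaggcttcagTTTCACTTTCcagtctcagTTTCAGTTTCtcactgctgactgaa
Ifit3: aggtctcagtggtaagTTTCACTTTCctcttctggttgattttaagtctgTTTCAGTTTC
Rsad2: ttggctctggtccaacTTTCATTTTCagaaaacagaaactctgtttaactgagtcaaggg

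**Figure D4:**
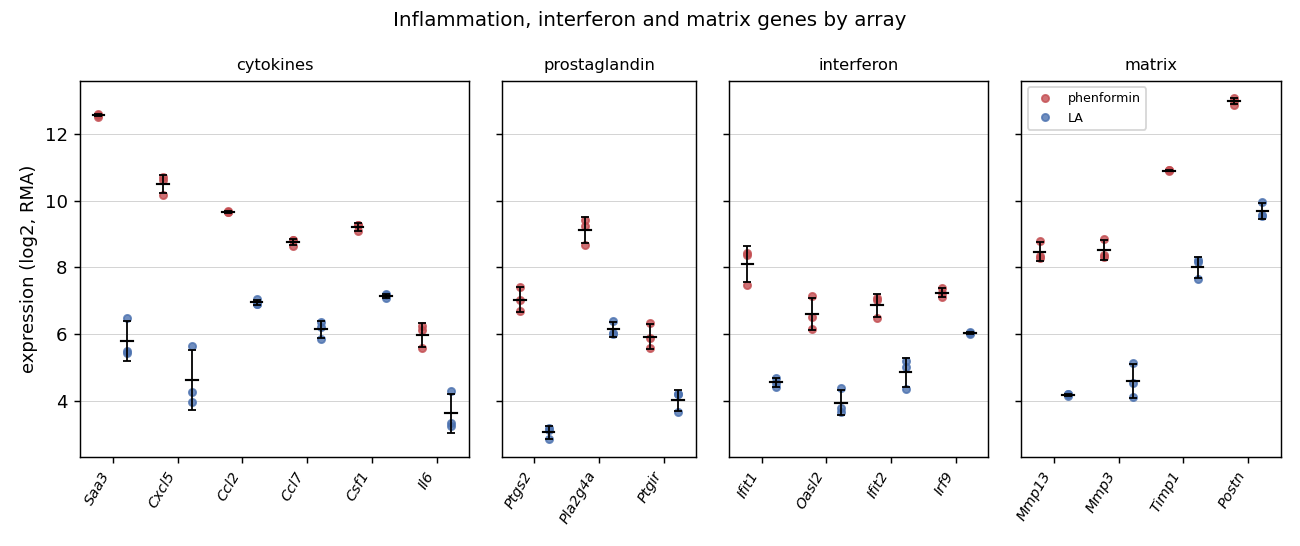
Log2 expression of cytokine, prostaglandin, interferon and matrix genes in each array, with phenformin left of LA. Points are arrays, bars are means ± SD (n = 3). Every phenformin array lies above every LA array for each gene drawn, and the LA values of Ptgs2 were not above background.

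Genes of preadipocytes and of the matrix around them were higher in phenformin, with 18 of 24 risen, 0 fallen and a median of 1.09 (0.76 after quantile normalization). The collagenase Mmp13 was at 8.34, 8.80 and 8.27 in the phenformin arrays, against 4.13, 4.19 and 4.19 in the LA arrays, a rise of 4.30 ± 0.18 (adjusted p = 1.61e-06). The other matrix enzymes Mmp3 and Mmp2 rose by 3.92 ± 0.25 (adjusted p = 1.03e-05) and 2.52 ± 0.23 (adjusted p = 7.63e-05). Their inhibitor Timp1 was at 10.93, 10.90 and 10.87 with phenformin and 8.22, 8.15 and 7.64 with LA, 7.47-fold higher (adjusted p = 4.49e-06). Postn, the matrix protein periostin, was at 13.07, 12.99 and 12.88 in the phenformin arrays, against 9.56, 9.55 and 9.95 in the LA arrays, a rise of 3.29 ± 0.14 (adjusted p = 1.61e-06) or 9.80-fold. The summed level of 5 measured fibroblast and preadipocyte markers of 6 listed (Dlk1, Pdgfra, Thy1, Col1a1 and Col3a1), none below background, was 14.52 to 14.76 with phenformin and 13.15 to 13.30 with LA. Of these, 4 were among the rises and Thy1 was not called. The part of undifferentiated cells in the results was not tested. Of 10 endothelial and 10 muscle markers, 1 each rose (Flt1 and Acta1), and 5 and 4 were not above background in either group. Besides the brightest probe set of Flt1, its others were called higher too, by 2.11 ± 0.19, 0.83 ± 0.15 and 0.39 ± 0.11. What follows is of the brightest. Flt1 ceased to be called when the 3′ minus 5′ covariate was fitted, after quantile normalization, with the replicate block, without CLA replicate 1 (0.0748), without LA replicate 1 (0.126), without LA replicate 2 (0.14), without phenformin replicate 1 (0.141), without phenformin replicate 2 (0.14) and without phenformin replicate 3 (0.0673), and its adjusted p ran from 0.000132 to 0.148 over the 18 alternatives.

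Cell cycle genes rose in 10 of 18 cases and fell in 1, a count that moved with the arrays used. It was 4 after quantile normalization, 1 with the covariate, 4 in a fit of only the 6 arrays, 6 without CLA replicate 1 or phenformin replicate 1, 3 without LA replicate 1, LA replicate 2 or phenformin replicate 2, and 5 without phenformin replicate 3. Ccna2, a cyclin of DNA replication, was at 7.95, 8.06 and 7.98 in the phenformin arrays, against 5.81, 5.78 and 6.89 in the LA arrays, with LA replicate 3 above the other LA arrays, and rose by 1.84 ± 0.25 (adjusted p = 0.00068) under all 18 alternatives. Genes that stop the cycle rose as well, with 8 of 14 higher and 1 lower. Gadd45a, a stress-induced arrest gene, was at 11.38, 11.64 and 11.79 in the phenformin arrays, against 7.82, 7.79 and 7.69 in the LA arrays, a rise of 3.84 ± 0.12 (adjusted p = 6.57e-07) or 14.3-fold. Its relatives Gadd45b and Gadd45g differed in sign, at 2.04 and -2.43 (adjusted p = 3.00e-05 and 1.96e-05). The cyclin-dependent kinase inhibitors Cdkn2b and Cdkn1b rose by 1.97 ± 0.10 (adjusted p = 3.47e-06) and 1.92 ± 0.19 (adjusted p = 0.000123), with Cdkn1b at 9.14, 9.51 and 9.45 with phenformin and 7.38, 7.47 and 7.49 with LA.

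Genes tied to oxygen and to the daily clock had smaller counts. Of 12 hypoxia genes 4 rose and 0 fell (2 rises with the covariate and 7 over mean probe sets, and 2 falls after quantile normalization). Hif1a, the oxygen-sensitive factor, was at 11.65, 11.94 and 11.42 with phenformin and 10.59, 10.54 and 9.61 with LA, a rise of 1.42 ± 0.24 (adjusted p = 0.00261), and P4ha1, a collagen prolyl hydroxylase, rose by 0.91 ± 0.11 (adjusted p = 0.000399). Of 15 clock genes 3 rose (1 with the covariate) and 0 fell, beside 13.7% and 5.11% of all genes. Bhlhe40, a repressor in the clock, was at 10.10, 10.30 and 10.28 with phenformin and 9.18, 9.25 and 9.38 with LA, a rise of 0.96 ± 0.12 (adjusted p = 0.000434).

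The 10 largest rises and 10 largest falls without overlap held genes outside these lists. Among rises not yet described, Gxylt2, which adds xylose to Notch-type repeats, was at 9.27, 9.35 and 9.22 in the phenformin arrays, against 4.56, 5.03 and 6.11 in the LA arrays, a rise of 4.05 ± 0.30 (adjusted p = 2.32e-05). Stbd1, which carries glycogen to the lysosome, was at 7.83, 8.26 and 8.45 in the phenformin arrays, against 4.40, 4.16 and 4.30 in the LA arrays, a rise of 3.90 ± 0.19 (adjusted p = 2.70e-06), and Mgp, an inhibitor of matrix calcification, rose by 3.59 ± 0.29 (adjusted p = 3.51e-05). Of the falls, Itih4, a secreted acute phase protein, was at 7.32, 7.58 and 7.47 in the phenformin arrays, against 11.05, 11.31 and 10.58 in the LA arrays, a difference of -3.52 ± 0.20 (adjusted p = 5.32e-06), and the chemokine Ccl6 was at 4.28, 4.41 and 4.28 in the phenformin arrays, against 8.54, 8.45 and 6.997 in the LA arrays, a difference of -3.67 ± 0.33 (adjusted p = 6.79e-05) with both probe sets lower. Depp1, a FOXO-induced gene of autophagy, fell by 4.13 ± 0.60 (adjusted p = 0.00113), with both probe sets lower. Vstm2a, a secreted protein of preadipocytes, was at 2.88, 3.01 and 3.01 with phenformin and 6.41, 6.03 and 5.86 with LA, and was not above background in any phenformin array, so its fall is a bound of at least 4.79-fold (adjusted p = 1.91e-06). Several of the largest falls rest on 1 probe set of several. Cryl1, a dehydrogenase of sugar metabolism, was at 5.94, 5.48 and 6.80 in the phenformin arrays, against 10.48, 9.503 and 12.14 in the LA arrays, but 3 further probe sets gave differences of 0.02, -0.12 and -0.17, none called. E2f5, a cell cycle repressor, was at 6.87, 6.65 and 8.57 in the phenformin arrays, against 11.58, 10.89 and 12.74 in the LA arrays, and its 2 other probe sets gave 0.36 and 0.03. Nrip2 and Aif1l likewise fell on 1 of 3 probe sets each, with differences of -3.10 ± 0.64 (adjusted p = 0.00761) and -2.88 ± 0.59 (adjusted p = 0.00779), and 1700003E16Rik had a difference of -2.85 ± 0.41 (adjusted p = 0.00107) on its only probe set. Nrip2 ceased to be called when the 3′ minus 5′ covariate was fitted, and its adjusted p ran from 0.00102 to 0.0528 over the 18 alternatives.

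Phenformin was also set directly against CLA, the other treatment of the series. Both treatments were compared with the same LA arrays, so their own differences from LA are not independent and the direct test between them is given. In that test 2048 probe sets (4.55%) were called, 1292 (2.87%) higher and 756 (1.68%) lower in phenformin. Over genes 1147 (6.3%) were called, 719 (3.95%) higher and 428 (2.35%) lower. Several lists higher than in LA were also higher with CLA. CLA minus LA medians were 1.05 for stress regulators, 0.70 for synthetases, 0.96 for cholesterol, 1.62 for matrix and 1.92 for NF-kB genes. The median over all genes was 0.05. Heat shock and fat synthesis genes had 0.997 and -0.51. Between the treatments 0 of 17 synthetases were called, and 3 of 19 stress regulators were higher and 1 lower in phenformin. Of 22 fat synthesis genes 9 were higher, and of 10 heat shock genes 6 were lower. Chac1 was at 10.81, 10.88 and 10.91 with phenformin and 9.51, 9.51 and 9.51 with CLA, a difference of 1.36 ± 0.10 (adjusted p = 0.000129), and Ddit3 differed by 1.30 ± 0.12 (adjusted p = 0.000314), both higher in phenformin. Atf4 was not called between the treatments, with a difference of 0.33 ± 0.12 (95% interval 0.06 to 0.59, adjusted p = 0.196). Atf3 was lower in phenformin than in CLA, with a difference of -1.19 ± 0.15 (adjusted p = 0.00233). Klb was at 9.55, 9.69 and 9.59 with phenformin and 7.61, 7.71 and 7.80 with CLA, with LA at 8.55, 8.25 and 8.91, a phenformin minus CLA difference of 1.90 ± 0.16 (adjusted p = 0.000186). Fgf21 was higher with phenformin than with CLA by 1.10 ± 0.18 (adjusted p = 0.00778) and Ppargc1a by 1.87 ± 0.18 (adjusted p = 0.0004). Slc2a4, on its brightest probe set only, was at 10.59, 10.33 and 10.44 with phenformin and 8.71, 9.05 and 8.62 with CLA, a difference of 1.66 ± 0.19 (adjusted p = 0.0011), while Slc2a1 was lower with phenformin, with a difference of -2.002 ± 0.32 (adjusted p = 0.00623). Prkaa2 was at 6.05, 6.32 and 6.06 with phenformin and 5.25, 5.45 and 5.49 with CLA, a difference of 0.75 ± 0.12 (adjusted p = 0.00631).

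Several inflammatory and growth genes stood below their CLA level. Ptgs2 was at 7.01, 7.41 and 6.68 with phenformin and 10.15, 10.08 and 9.70 with CLA, a difference of -2.95 ± 0.20 (adjusted p = 4.95e-05), and Ccl2 was at 9.65, 9.65 and 9.68 with phenformin and 11.46, 11.36 and 11.39 with CLA, a difference of -1.75 ± 0.10 (adjusted p = 1.61e-05). Saa3 was not called, at -0.24 ± 0.23 (95% interval -0.76 to 0.28, adjusted p = 0.671). The 5 largest called differences downward were Ereg, Fosl1, Hspb1, Sprr1a and Clcf1. The growth factor gene Ereg was at 4.71, 4.82 and 4.82 with phenformin and 9.98, 9.39 and 10.49 with CLA, with LA at 4.17, 4.14 and 4.32, a phenformin minus CLA difference of -5.17 ± 0.22 (adjusted p = 2.50e-06). Fosl1, an AP-1 subunit, differed by -4.73 ± 0.15 (adjusted p = 7.69e-07), the small heat shock protein Hspb1 by -3.39 ± 0.18 (adjusted p = 1.17e-05), Sprr1a, of the skin barrier, by -3.33 ± 0.32 (adjusted p = 0.000415), and the cytokine Clcf1 by -3.10 ± 0.12 (adjusted p = 1.40e-06). Against LA, Fosl1 rose by 0.51 ± 0.15 (adjusted p = 0.0495). That call ended under 13 of the 18 alternatives, among them the covariate, quantile normalization and leaving out any 1 array but phenformin replicate 1. Ereg was not called against LA, and was called higher under 4 of the 18 alternatives. The 5 largest upward were Taf15, Maf, Thrsp, N4bp2l1 and Rassf6. Taf15, an RNA-binding protein, was at 9.20, 9.30 and 9.01 with phenformin and 6.60, 5.73 and 6.19 with CLA, a difference of 2.99 ± 0.20 (adjusted p = 5.77e-05), and Maf, a transcription factor, differed by 2.34 ± 0.25 (adjusted p = 0.000741). Thrsp, the lipogenic protein named above, was at 12.71, 12.70 and 12.52 with phenformin and 10.44, 10.30 and 10.39 with CLA, a difference of 2.27 ± 0.12 (adjusted p = 1.22e-05). N4bp2l1 and Rassf6 differed by 2.26 ± 0.19 (adjusted p = 0.000234) and 2.26 ± 0.25 (adjusted p = 0.000841). Of the fat synthesis genes, Pnpla3 was at 8.26, 8.23 and 8.11 with phenformin and 6.56, 6.54 and 6.16 with CLA, higher with phenformin than with CLA by 1.78 ± 0.16 (adjusted p = 0.000267) and below its LA level of 10.26, 10.26 and 9.79, and Fasn differed by 0.91 ± 0.20 (adjusted p = 0.0273).

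**Figure D5:**
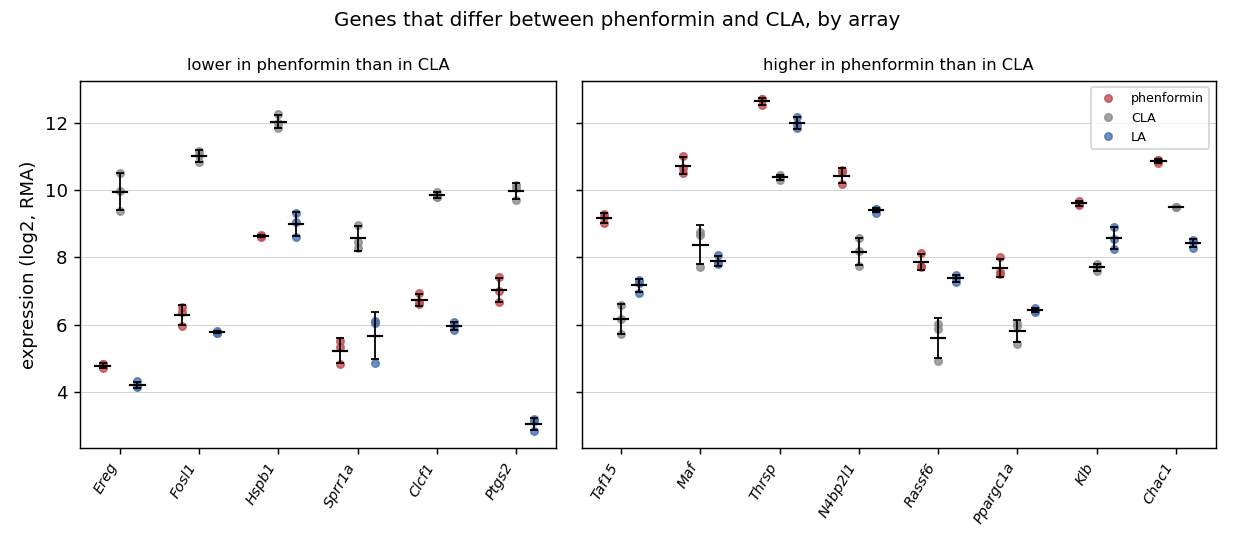
Log2 expression in each array of genes that were lower (left) or higher (right) in phenformin than in CLA, in the order phenformin, CLA and LA. Points are arrays, bars are means ± SD (n = 3). Ereg and Fosl1 lie much nearer to their LA levels with phenformin than with CLA, while Ppargc1a, Klb and Chac1 lie above both other groups with phenformin.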

How the data were processed

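Total RNA of each sample was hybridized to 1 Affymetrix mouse array. The deposited values are log2 expression per probe set, which per the submitters' processing notes the authors made with RMA under R 2.9.0. Tables of limma results deposited beside them hold log2 fold changes, p-values and a score of each probe set, its moderated t or log odds, per the file headers. The sources used here name no limma version of theirs. Their deposited table called 7405 of 45101 probe sets between phenformin and LA, and the fit used here, with the control probe sets put back, called the same 7405.

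The 64 control probe sets were left out, and no further normalization was applied outside the alternatives. One limma 3.58.1 fit (R 4.3.3) over 9 arrays and 3 groups gave two-sided p-values for each contrast, adjusted over 45037 probe sets by the Benjamini-Hochberg method and called under 0.05. The same steps were tested on simulated data. Of the probe sets, 34945 had 1 symbol, 932 several and 9160 none here. The brightest with 1 symbol stood for its gene. Background was the 95th percentile of 27 bacterial control probe sets of each array, 3.68 to 4.20, and a bound for a gene under it in a whole group is taken against the dim group's mean of the higher of this level and its own. The 3 arrays of each group limit the precision. The p-values set a difference between group means against the spread within groups, pooled over the 9 arrays and moderated over probe sets. An exact permutation test could not go below 0.1. The replicate numbers do not pair phenformin and LA arrays: the deviations of same-numbered arrays from their group means correlated at -0.22, -0.05 and -0.10. Same-numbered phenformin and CLA arrays correlated at 0.29, 0.09 and 0.58, and differently numbered ones at -0.53 to 0.39. Their pyruvate carboxylase differences, by number, were 4.50 and 4.55, 4.03 and 4.20, and 3.30 and 3.33. The phenformin and CLA test is unpaired, and only its count of calls was refitted with the replicate block.

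Of 632 list entries, 588 were measured and the others are not analysed here. Named were the 10 largest rises and falls without overlap between the groups (34.9% of all genes had no overlap), up to 5 members a list with the smallest adjusted p, all members of the AMPK, stress regulator and stress hormone lists, and a set of genes always named. Genes taken by this rule but not described enter the tallies of how calls changed. The comparison, the lists and the naming rule were chosen with earlier results of these data known. Ifit3, Rsad2 and the other genes named by promoter or marker alone were chosen after their values were seen. Promoters came from RefSeq (GRCm38.p6). Alternatives were the replicate block, each array left out, the 6 arrays alone, median centring, quantile normalization, a filter on dim probe sets, an intensity trend, array weights, at least a 2-fold difference, a covariate for RNA shortening (pyruvate carboxylase control, 3′ minus 5′), and the mean of a gene's probe sets. Tables and figures were made with Python 3.11.15, pandas 2.3.3 and matplotlib 3.10.9.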

Additional observations from a re-analysis of the deposited data

How the results depend on the processing

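The 7401 probe sets called between phenformin and LA, 5168 higher and 2233 lower, became 3646 with the 3′ minus 5′ covariate (2793 higher and 853 lower), 11123 with array weights (4393 lower, and 60.5% higher) and 2534 at a minimum of 2-fold (2060 higher and 474 lower). Quantile normalization gave 7811, of which 4003 were lower. With the replicate block 7299 were called, and 6231 in a fit of only the 6 arrays. Leaving out 1 array gave 4954 to 7620 calls, with 3711 to 5253 higher and 1243 to 2881 lower. The lower count moved most without phenformin replicates 1 and 2 (1243 and 1301) and LA replicate 1 (1389). Between phenformin and CLA, 2048 probe sets were called, 1292 higher and 756 lower in phenformin, and leaving out 1 array gave 820 to 3085, with 428 to 1943 higher and 392 to 1142 lower. The highest counts came without LA replicate 3, and the count was 1761 with the replicate block and 2240 after quantile normalization. Calls of single genes between phenformin and CLA were not refitted. Of 192 genes taken by the naming rule and called between phenformin and LA, some of them not described, 114 were called under every alternative that tested them and 78 lost the call under at least 1, 67 of these with the covariate. Insr had the opposite sign, 0.0229, over the mean of its probe sets. Of 56 such genes not called, 26 were called under at least 1 alternative and 21 had the other sign under at least 1. The replicate block ended the call of 5 of the 192. The causes were not tested. Genes near background are limited by signal.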
